A study of Oryza sativa with 8 samples.

Results

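Expansins and xyloglucan endotransglucosylase/hydrolases (XTH, earlier XET) are the secreted proteins that let a plant cell wall yield while the cell grows. Rice genes were taken as members when a platform or RefSeq symbol or synonym read EXPA, EXPB, EXPLA, EXPLB, XTH or XET followed by a number. The rule found 45 genes, namely 29 alpha-expansins, 15 beta-expansins and 1 xyloglucan enzyme, XTH8, and 0 genes written as expansin-like. Of these, 26 had a probe set listed with 1 gene, among 17905 genes so listed on the array, and they are 14 alpha-expansins, 11 beta-expansins and XTH8.

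The RNA came from roots of IR64, an indica rice, grown in greenhouse pots, and was read on 8 Affymetrix arrays, 1 per sample, in 4 groups of 2 biological replicates. Transgenic plants (T) carried the kinase gene OsPSTOL1 behind the 35S promoter, which is active in most tissues, and their null segregants (NT) lacked the transgene. The groups are T in P-deficient soil, NT in P-deficient soil, T in P-fertilised soil and NT in P-fertilised soil, where P is phosphorus. Roots of P-deficient soil came from plants at heading and roots of P-fertilised soil from plants at mid-tillering, so soil and stage cannot be told apart in any difference between soils given here. The labels do not say whether the T plants come from 1 or several transformation events, and no probe set is named PSTOL1, so the transgene could not be checked. The replicates are labelled biological, with no word on whether plants were pooled.

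Expansins loosen walls at acid pH without cutting the polymers, by weakening contacts between cellulose and the matrix around it. Alpha-expansins are the general growth form in land plants. Beta-expansins form a large family in grasses, whose primary walls hold little xyloglucan and much arabinoxylan, and in maize the pollen form acts on arabinoxylan. XTH enzymes cut xyloglucan chains and rejoin them. In roots both are known from the elongation zone behind the tip and from root hairs, where walls stretch most.

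Values are signal intensities per probe set, on a linear scale that the authors had brought to a common level per array. Differences are on the log2(signal + 32) scale, where changes of dim signals come out too small, and were tested with limma over 34316 probe sets. Signals are not read as the expression level of one gene against another, because probe sets differ in brightness. Words such as dim describe the signal only, and sums over marker genes are weighted to the brighter probe sets. The T arrays of P-deficient soil stood apart in 3-prime to 5-prime control ratios, a sign of RNA integrity, replicate 1 most of all. The 3-prime control probe set for GAPDH read 198 times the 5-prime one there. This ratio was 3.05 for T replicate 2 and 1.15 and 1.21 for NT in the same soil, against 1.55 to 2.16 in P-fertilised soil. Its actin counterpart was 272 and 20.3 for T but 4.85 and 8.61 for NT under P deficiency, against 5.15 to 6.09 in P-fertilised soil, so both T arrays of P-deficient soil lay above the other 6. Replicates correlated at 0.964 to 0.984 over probe sets, which are not independent. The root label was checked with 16 root marker genes that had a probe set, 1 of them a growth regulator gene that the list took in through its synonym PT2. Their summed signal was 7771 to 9628.3 in P-deficient soil and 12891.1 to 14452.6 in P-fertilised soil, and the dimmest of them, the iron transporter gene IRT2, read at most 25.8. Those of 6 green tissue genes summed to 150.3 to 326.6 in P-deficient soil and 144.2 to 951.3 in P-fertilised soil, the highest on T replicate 2, and no marker was at 0 on all arrays.

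Transcripts of most measured expansins were far lower in P-deficient soil at heading than in P-fertilised soil at mid-tillering. Of the 26 genes with a probe set, 19 fell and 0 rose over both genotypes, namely 9 alpha-expansins, 9 beta-expansins and XTH8. Over all tested probe sets, 24.8 percent were called lower and 22.3 percent higher, 47.1 percent in all. The filter on the mean over all arrays left 21 of the 26 for testing, and it can pass a gene through its level in 1 soil alone. This concerned 4 of them (EXPA8, EXPA31, EXPB17 and EXPB18), whose mean in P-deficient soil alone lay below the limit. Without the filter all 26 were tested, with 19 lower and 0 higher and a median difference of -1.74, against a median of 0.02 and 14.6 percent called lower over 57194 probe sets. In each of the 19 the 4 arrays of P-deficient soil lay below the 4 arrays of P-fertilised soil, as they did in 23 percent of all tested probe sets. Fewer cells of a type and less RNA per cell cannot be told apart in such bulk samples.

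**Figure D1:**
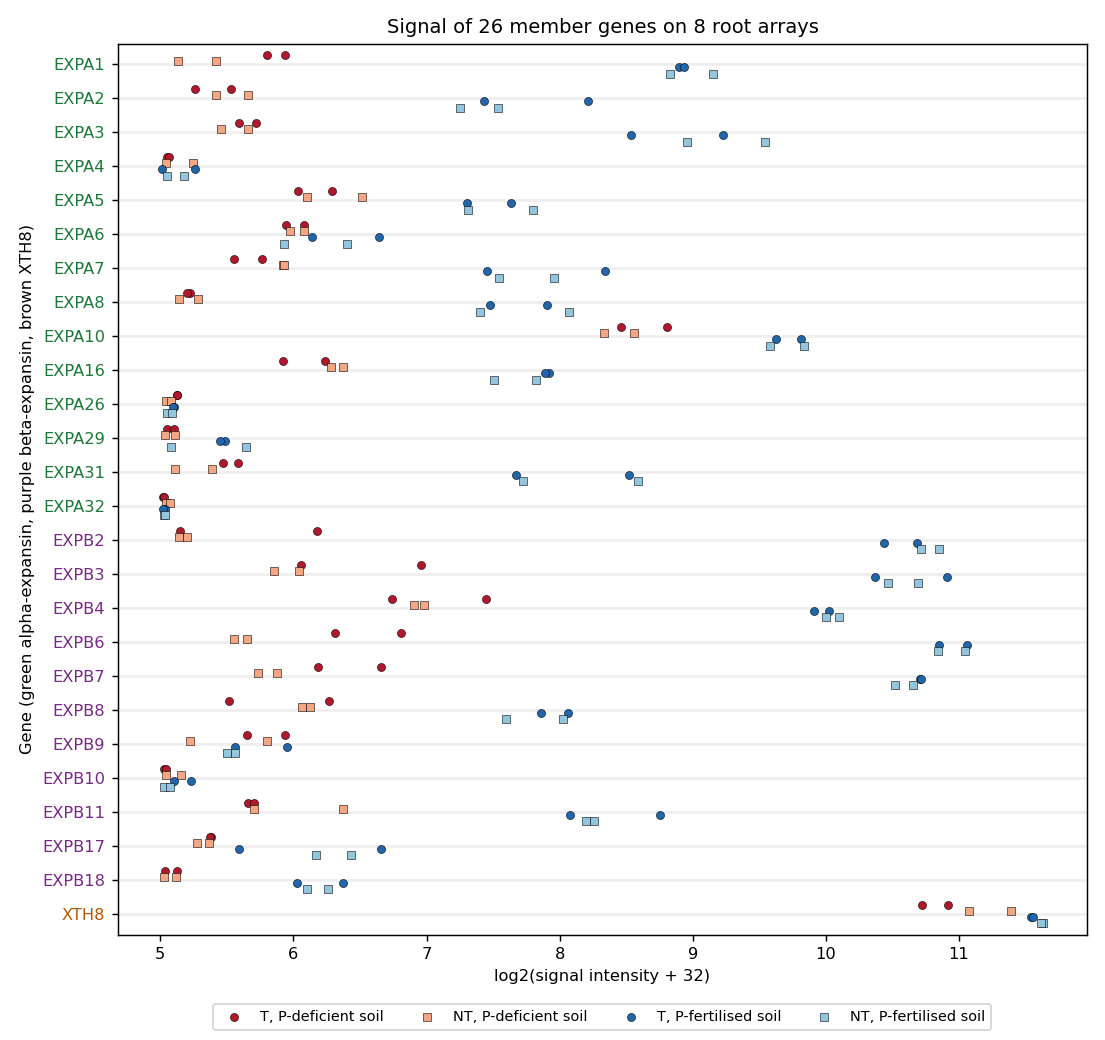
Signal of the 26 expansin and XTH genes with a probe set, as log2(signal + 32) on each of 8 arrays, 2 points per group. In 19 of the 26 genes the 4 points of P-deficient soil (red and orange) lie left of the 4 points of P-fertilised soil (blue).

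Beta-expansins held the largest differences among these genes. EXPB2, known for a part in root growth of rice, read 40.3 and 3.4 in T roots and 4.7 and 3.2 in NT roots of P-deficient soil, against 1611.1 and 1358.2 in T roots and 1650.6 and 1812 in NT roots of P-fertilised soil. The soils lay far apart, with T replicate 1 the highest of the P-deficient arrays. The difference was -5.26 ± 0.21 (SE), the 11th lowest of 34316 probe sets on this scale (limma adjusted p = 6.59e-07). The size depends on the constant added before the log, at -7.62 with 1 and -3.93 with 100. With every signal under 32 set to 32, EXPB2 was at least 47.2-fold lower in P-deficient soil.

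EXPB6 read 80.2 and 47.5 in T roots and 18.2 and 15 in NT roots of P-deficient soil, against 1812.3 and 2107.1 in T roots and 1809.5 and 2085.1 in NT roots of P-fertilised soil. It fell by 4.87 ± 0.14 on the log2 scale (limma adjusted p = 1.5e-07), and in P-deficient soil both T arrays lay above both NT arrays. EXPB7 read 69 and 40.8 in T roots and 26.8 and 21.3 in NT roots of P-deficient soil, against 1639 and 1649.7 in T roots and 1579.8 and 1437.7 in NT roots of P-fertilised soil. Its difference of -4.54 ± 0.13 (limma adjusted p = 1.56e-07) came with the same order of genotypes in P-deficient soil. EXPB3 read 92.2 and 34.7 in T roots and 33.9 and 25.9 in NT roots of P-deficient soil, against 1290.5 and 1890.1 in T roots and 1382.5 and 1623.8 in NT roots of P-fertilised soil. It fell by 4.38 ± 0.21, and T replicate 1 again was the highest P-deficient array.

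EXPB4 kept a clear signal in P-deficient soil. It read 142.4 and 74.9 in T roots and 87.9 and 94.5 in NT roots of P-deficient soil, against 928.9 and 1007.9 in T roots and 992.5 and 1065.4 in NT roots of P-fertilised soil, a difference of -2.99 ± 0.16. Its probe set carries the suffix _s_at, which marks probes shared with other transcripts, so part of its signal may belong to a relative. EXPB11 read 18.5 and 20.2 in T roots and 20.1 and 50.8 in NT roots of P-deficient soil, against 238.1 and 400.4 in T roots and 274.5 and 262.2 in NT roots of P-fertilised soil (-2.46 ± 0.19). Here NT replicate 2 was the highest P-deficient array. EXPB8 fell by 1.89 ± 0.18, with 13.8 to 45.1 in P-deficient soil and 161.4 to 235.9 in P-fertilised soil.

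The remaining beta-expansins were dim. EXPB18 read 0.6 to 2.8 in P-deficient soil and 33.3 to 50.8 in P-fertilised soil, and fell by 1.12 ± 0.10. EXPB17 read 9.7 and 9.4 in T roots and 9.3 and 6.8 in NT roots of P-deficient soil, against 16.3 and 69.2 in T roots and 39.9 and 54.4 in NT roots of P-fertilised soil (-0.86 ± 0.21, limma adjusted p = 0.00915). A second probe set for the gene did not pass, at -0.10 ± 0.09 and a highest signal of 27.8. EXPB9 differed by 0.01 ± 0.15 (limma adjusted p = 0.961), with 5.4 to 29.1 in P-deficient soil and 13.2 to 29.8 in P-fertilised soil. EXPB10, a beta-expansin of the pollen group, read at most 5.6 on any array and was below the filter.

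Some of these genes lie side by side. In the RefSeq gene table EXPB6, EXPB2, EXPB3 and EXPB4 are 4 consecutive protein-coding genes, and their differences were -4.87, -5.26, -4.38 and -2.99. EXPB8 and EXPB7 are also neighbours, yet with -1.89 and -4.54 they differed in size. The P-deficient mean of EXPB2, EXPB6, EXPB7 and EXPB3 over both genotypes was 0.802, 2.06, 2.5 and 3.02 percent of the P-fertilised mean of the same gene, and that of EXPB4 was 10 percent. The 6 consecutive alpha-expansin genes EXPA12, EXPA25, EXPA15, EXPA18, EXPA19 and EXPA20 have no listed probe set.

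**Figure D2:**
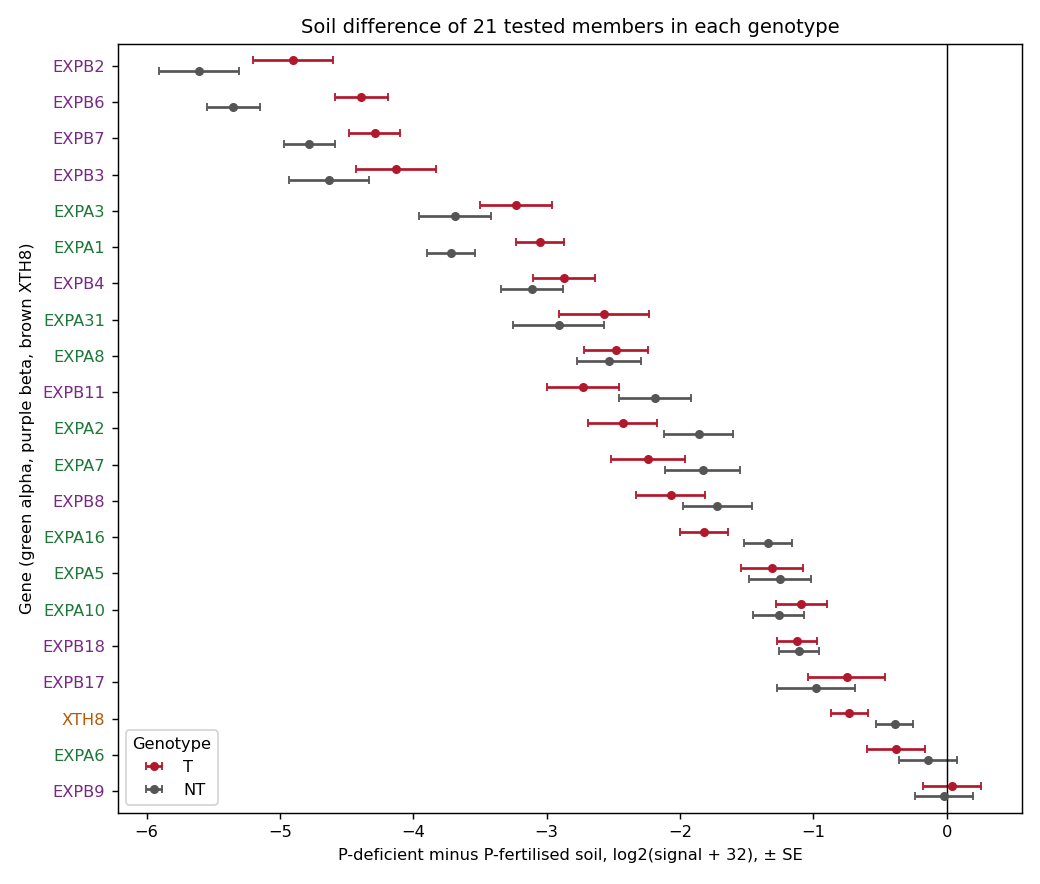
Difference between P-deficient and P-fertilised soil of the 21 tested genes, in log2(signal + 32) ± SE, in T (red) and in NT (grey), sorted by the mean of both. EXPB2, EXPB6, EXPB7 and EXPB3 lie at or below -4.13 in both genotypes, and EXPB9 and EXPA6 lie closest to 0.

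Of the alpha-expansins 9 of 14 fell, with differences between -3.46 and -1.17 on the log2(signal + 32) scale. On a linear scale, P-deficient means were 2.78 percent of P-fertilised means for EXPA8, 3.22 for EXPA3, 3.59 for EXPA1 and 3.91 for EXPA31. The share was 0.802 for EXPB2 and 3.02 for EXPB3. These 4 alpha-expansins read under 32 on every P-deficient array, so their shares rest on very dim signals. With signals under 32 set to 32, EXPA8 was at least 5.53-fold lower and EXPA31 at least 7.69-fold, against at least 35.4-fold for EXPB3. EXPA3 read 20.6 and 16.1 in T roots and 11.9 and 18.5 in NT roots of P-deficient soil, against 568.9 and 339.4 in T roots and 713.7 and 464.8 in NT roots of P-fertilised soil (-3.46 ± 0.19, limma adjusted p = 3.02e-06). EXPA1 read 29.3 and 23.7 in T roots and 10.7 and 3.1 in NT roots of P-deficient soil, against 444.7 and 457.8 in T roots and 423.2 and 536.7 in NT roots of P-fertilised soil (-3.38 ± 0.13). Both were under 32 on every P-deficient array, so their folds of at least 15.7 for EXPA3 and 14.5 for EXPA1 are lower bounds with signals under 32 set to 32. EXPA31 read 16 and 12.3 in T roots and 9.8 and 2.6 in NT roots of P-deficient soil, against 336 and 172.2 in T roots and 352.3 and 179.5 in NT roots of P-fertilised soil (-2.74 ± 0.24). Its replicates lay about as far apart in both genotypes of P-fertilised soil, and neither came near the P-deficient arrays.

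EXPA8, whose overexpression enlarges the root system of rice, was close to the bottom of the scale in P-deficient soil. It read 5.3 and 4.7 in T roots and 3.3 and 6.9 in NT roots there, against 207.1 and 146.1 in T roots and 236.9 and 137.2 in NT roots of P-fertilised soil (-2.50 ± 0.17, limma adjusted p = 8.22e-06). EXPA2 read 6.4 and 14.1 in T roots and 18.4 and 10.8 in NT roots of P-deficient soil, against 140.8 and 264.8 in T roots and 153.3 and 120.5 in NT roots of P-fertilised soil (-2.14 ± 0.18). EXPA7, tied to salt tolerance in rice, read 15 and 22.3 in T roots and 28.6 and 28.9 in NT roots of P-deficient soil, against 143.1 and 291.6 in T roots and 154.9 and 216 in NT roots of P-fertilised soil (-2.03 ± 0.20). For EXPA7 the fall was seen by 1 of 3 probe sets. The others read at most 16.2 and 12.3 on any array, and the brighter of them differed by 0.08 ± 0.09 (limma adjusted p = 0.498).

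A smaller fall was found in 3 more alpha-expansins, which kept a signal in P-deficient soil. EXPA16 read 28.5 and 43.4 in T roots and 46 and 50.8 in NT roots of P-deficient soil, against 209.7 and 204.9 in T roots and 149.8 and 194.6 in NT roots of P-fertilised soil (-1.58 ± 0.13). EXPA5 ran from 33.5 to 59.6 in P-deficient soil and from 126 to 191.3 in P-fertilised soil (-1.28 ± 0.17). EXPA10, an aluminium-inducible alpha-expansin of rice root tips, read 416.7 and 319.9 in T roots and 345.2 and 290.5 in NT roots of P-deficient soil, against 757.3 and 869.5 in T roots and 732.3 and 883.1 in NT roots of P-fertilised soil (-1.17 ± 0.13). Its P-deficient mean was 42.3 percent of its P-fertilised mean, the highest share among the 9 alpha-expansins that fell.

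EXPA6 did not pass. It read 35.6 and 29.7 in T roots and 30.8 and 35.5 in NT roots of P-deficient soil, against 38.6 and 67.8 in T roots and 52.7 and 28.9 in NT roots of P-fertilised soil, with overlap (-0.26 ± 0.15, limma adjusted p = 0.195). EXPA4, known from the growing coleoptile of rice, read at most 6.3, EXPA26 at most 2.9, EXPA29 at most 18.1 and EXPA32 at most 1.7, and these 4 were below the filter. EXPA17, known for root hair growth in rice, is not listed with a probe set. The same holds for EXPA9, EXPA11, EXPA13, EXPA14, EXPA21, EXPA22, EXPA28, EXPA33, EXPB5, EXPB14, EXPB15 and EXPB16.

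XTH8, a gibberellin-responsive xyloglucan enzyme gene of rice, showed the smallest of the 19 falls. It read 1657.9 and 1907 in T roots and 2125.5 and 2655 in NT roots of P-deficient soil, against 2949.8 and 2989.2 in T roots and 3148.8 and 3113.3 in NT roots of P-fertilised soil. The soils did not overlap, and the difference was -0.56 ± 0.10 (limma adjusted p = 0.00215). The P-deficient mean was 68.4 percent of the P-fertilised mean.

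**Figure D3:**
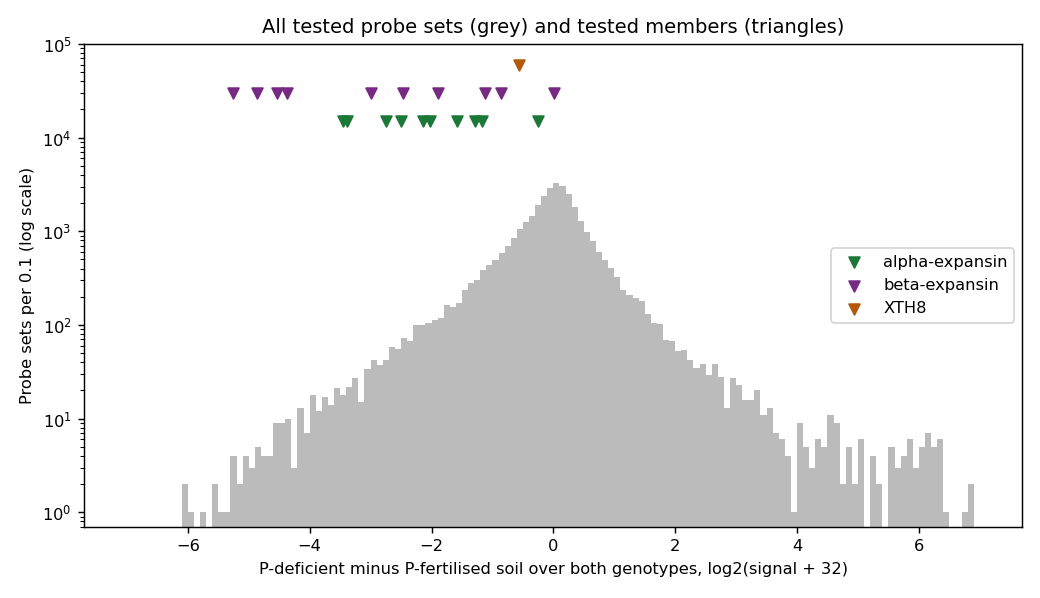
Histogram of the soil difference over both genotypes, in log2(signal + 32), for 34316 tested probe sets (grey, log scale), with the 10 tested alpha-expansins, 10 tested beta-expansins and XTH8 as triangles at set heights. EXPB2, EXPB6, EXPB7 and EXPB3 lie in the far left tail, between -5.26 and -4.38.

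Within each genotype the picture was alike. In T 18 of the 26 genes fell and 0 rose, beside 20.2 percent of all tested probe sets lower and 35.7 percent called either way, and in NT 18 fell and 0 rose, beside 17.1 percent lower and 32.5 percent either way. The soil comparisons of T and NT share no arrays, but they share the pooled spread of the fit and the same soil and stage difference. In both, 17 genes were called lower, and the share of all probe sets lower in both was not counted. EXPB17 was called in NT (-0.98 ± 0.29, limma adjusted p = 0.0348) and not in T (-0.75 ± 0.29, adjusted p = 0.0818). XTH8 was called in T (-0.73 ± 0.14, limma adjusted p = 0.00488) and not in NT (-0.39 ± 0.14, adjusted p = 0.0695). For neither gene was the difference between genotypes called, with an interaction of 0.23 for EXPB17 (limma adjusted p = 0.96) and -0.34 for XTH8 (adjusted p = 0.865). Without T replicate 1 of P-deficient soil, the array with the GAPDH ratio of 198, the count over both genotypes was again 19 lower and 0 higher.

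Other cell wall genes were looked at for comparison, in lists by gene name. Of 50 genes 43 had a probe set, and 24 fell and 6 rose over both genotypes, with a median of -0.67 over the 40 tested. Over all tested probe sets 24.8 percent were called lower and 22.3 percent higher, and these shares stand beside each list that follows. The name patterns also took in 4 seed glutelin genes, a bHLH gene with the synonym BC1 and the early nodulin-like gene ELA3, and without these 23 fell and 5 rose of 38 tested. Among cellulose synthases 7 of 9 fell and 0 rose (median -1.69). CESA7 (-2.38 ± 0.18) and CESA4 (-1.69 ± 0.16) serve secondary walls, and CESA3 (-1.73 ± 0.16) serves primary walls. Without the filter the median of the 14 alpha-expansins was -1.43 and that of the 11 beta-expansins -2.46, and whether either differs from that of the cellulose synthases was not tested.

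CSLC genes code for the synthase of the xyloglucan backbone, and 3 of 5 fell and 0 rose. CSLC3 read 30.3 and 24 in T roots and 25.3 and 31.3 in NT roots of P-deficient soil, against 430.3 and 367 in T roots and 425.4 and 407.2 in NT roots of P-fertilised soil (-2.88 ± 0.11, limma adjusted p = 6.01e-07). CSLC2 (-1.31 ± 0.12) and CSLC1 (-0.37 ± 0.13, adjusted p = 0.0442) fell too, while CSLC9 (0.01) and CSLC7 (0.27) did not pass. SRH2, from the list of root hair genes, has the synonym XXT1 for a xyloglucan xylosyltransferase, and it rose. It read 1546.3 and 1183.1 in T roots and 1443.2 and 2287.5 in NT roots of P-deficient soil, against 704.2 and 767.1 in T roots and 903.3 and 897.7 in NT roots of P-fertilised soil (0.92 ± 0.16, limma adjusted p = 0.00167). CSLD1, a cellulose synthase-like gene of root hairs, fell by 0.49 ± 0.11.

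In the CSLF and CSLH genes, which make the mixed-linkage glucan of grass walls, 3 of the 4 with a probe set fell, led by CSLF6 (-1.75 ± 0.16) and CSLF7 (-1.33 ± 0.11). The name pattern for endo-beta-1,4-glucanases (GLU) was the one that took in the glutelins. Without these, 7 of the 11 with a probe set fell and 1 rose (median -0.85), with GLU14 (-1.91 ± 0.11), GLU5 (-1.94 ± 0.16) and GLU8 (-1.41 ± 0.11) at the smallest p. Of the COBRA-like genes, which guide cellulose deposition, BC1 fell by 1.77 ± 0.19, BC1L2 fell by 0.55 ± 0.13 and BC1L6 rose by 1.59 ± 0.19, and BC1L9 did not pass.

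Expansin-like A genes carry the expansin fold but no known wall-loosening activity. RefSeq writes them EXLA, so the rule did not take them, and 4 of 5 expansin-like genes had a probe set. Only EXLA4 fell, by 0.41 ± 0.10 (limma adjusted p = 0.00874), and 0 rose. EXLA4 was dim, with 2.8 to 11.6 in P-deficient soil and 15.5 to 26 in P-fertilised soil, under 32 on every array. EXLA1 read 870.2 and 349.3 in T roots and 324.1 and 676.7 in NT roots of P-deficient soil, against 301.4 and 259.8 in T roots and 318.1 and 240.5 in NT roots of P-fertilised soil (0.81 ± 0.30, adjusted p = 0.0568). EXLA3 (-0.13 ± 0.20) and EXLA2 (0.25 ± 0.37) did not pass either. The median of the 4 was 0.06.

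**Figure D4:**
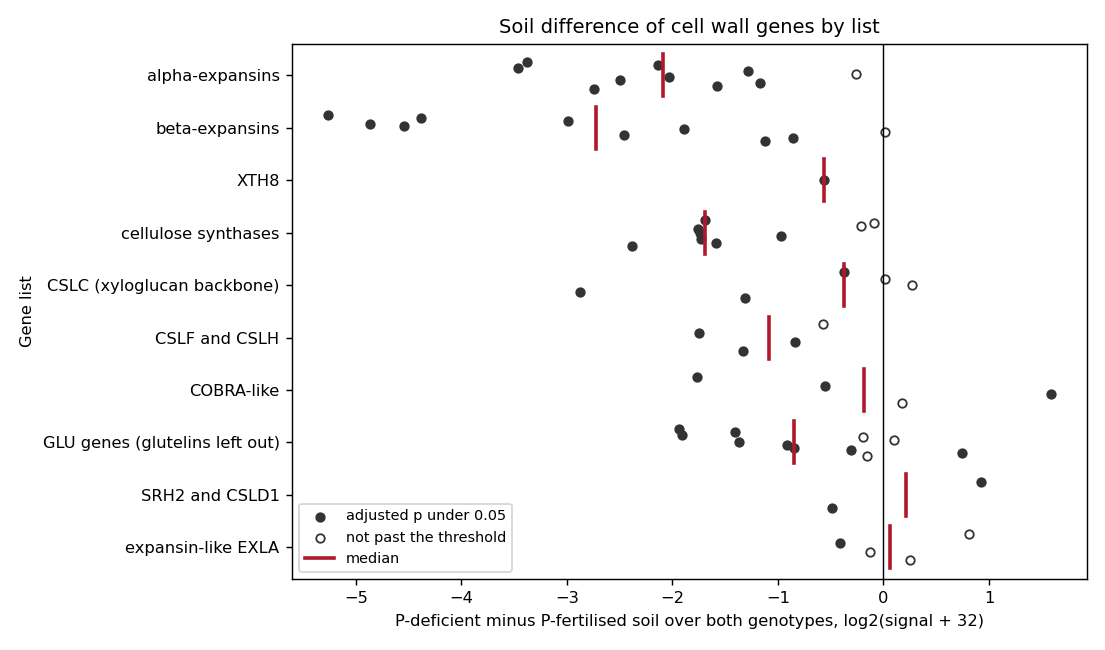
Soil difference over both genotypes, in log2(signal + 32), of each tested gene by list, filled where the limma adjusted p was under 0.05, with the list's median as a red bar. The medians of the 10 tested alpha-expansins (-2.09) and the 10 tested beta-expansins (-2.73) lie left of those of the other lists drawn, that of the expansin-like genes lies at 0.06, and with the genes below the filter included the alpha-expansin median of -1.43 lies right of that of the cellulose synthases (-1.69).

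Root markers moved with the soils too. CASP1, which builds the Casparian strip of the endodermis, read 18.4 and 10.8 in T roots and 18 and 10.7 in NT roots of P-deficient soil, against 612.2 and 488.4 in T roots and 516.7 and 429.1 in NT roots of P-fertilised soil (-3.54 ± 0.13). LSI2, the silicon efflux gene, differed by -4.78 ± 0.25 and NAAT1, of iron chelator synthesis, by -2.95 ± 0.18. In contrast TOM1, a chelator exporter gene, differed by 0.03 ± 0.08 (limma adjusted p = 0.761). The phosphate transporter genes were split. PT4 (1.81 ± 0.12), PT6 (1.58 ± 0.22) and PT8 (0.78 ± 0.19) rose. The transporter gene PT2, as distinct from the growth regulator gene with that synonym, fell (-2.13 ± 0.21). In all, 9 of 16 markers fell and 3 rose, beside 24.8 percent lower and 22.3 percent higher over all tested probe sets. The part of a change in root zones or cell types in the fall of the expansins was not tested.

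Between the genotypes, none of the 26 genes passed in limma in either soil. In P-deficient soil 0 of 21 tested passed, where 0.108 percent of all probe sets were called, 0.0117 percent higher in T and 0.0962 percent lower. An unadjusted p under 0.05 was found in 4 of the 21 (EXPB6, EXPA1 and EXPB7 higher in T and XTH8 lower). The same held for 4551 of all 34316 tested probe sets. EXPB6, with 80.2 and 47.5 in T against 18.2 and 15 in NT, differed by 0.96 ± 0.20 (95% interval 0.50 to 1.42, limma adjusted p = 0.158). EXPA1 differed by 0.59 ± 0.18 (adjusted p = 0.259) and EXPB7 by 0.62 ± 0.19 (adjusted p = 0.266). On the lower side were XTH8 at -0.41 ± 0.14 (adjusted p = 0.302), EXPA16 at -0.25 ± 0.18 and EXPB11 at -0.36 ± 0.27. Both T arrays lay above both NT arrays in 6 of the 21 and below in 3, where 17.6 and 22.9 percent of all tested probe sets did so.

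T replicate 1 of P-deficient soil, the array with the GAPDH ratio of 198, was the highest of the 4 P-deficient arrays in 9 of 10 tested beta-expansins and 5 of 10 tested alpha-expansins, and in 26.2 percent of all tested probe sets. Some of the 9 were very dim. It led by 2.8 against 2.7 on NT replicate 1 in EXPB18 and by 9.7 against 9.4 on T replicate 2 in EXPB17. EXPB9 read under 32 on every array. Without T replicate 1 EXPA1 differed by 0.52, EXPB6 by 0.71, EXPB7 by 0.38 and XTH8 by -0.31, each in the same direction as with that array. These 4 are the genes with an unadjusted p under 0.05. Among the neighbours of EXPB6, T replicate 2 read 74.9 in EXPB4, below both NT arrays (87.9 and 94.5). It lay between them in EXPB2 (3.4 against 4.7 and 3.2) and above both in EXPB3 (34.7 against 33.9 and 25.9). Without T replicate 2 EXPB6 differed by 1.21 and passed (limma adjusted p = 0.0374), and with the log GAPDH ratio as a covariate it differed by 0.61 (adjusted p = 0.912) and EXPA1 by 0.49 (adjusted p = 0.913). The GAPDH ratio was 198 on T replicate 1 and 1.15 to 3.05 on the other arrays, so this covariate mostly marks that array. It cannot address T replicate 2, whose actin ratio of 20.3 was also raised. The part of RNA integrity in the difference was not otherwise tested.

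In P-fertilised soil, where 0.00291 percent of all probe sets were called, 0 of the 21 passed in limma. An unadjusted p under 0.05 was found in 0 of the 21 and in 897 of all 34316 tested probe sets. Differences ran from -0.37 for EXPA3 to 0.43 for EXPA2, and their 95% intervals from -0.99 to 1.02, so differences inside these intervals could not be resolved with 2 arrays per group. EXPA16 (0.24), EXPA6 (0.22) and EXPB9 (0.22) followed on the higher side, and EXPB2 (-0.22) and EXPB17 (-0.17) on the lower side. Both T arrays lay above both NT arrays in EXPA16 and EXPB7, and below in EXPB2 and XTH8, where 20.3 and 16.2 percent of all probe sets did so. Over both soils 0 of 21 passed in limma, with 0.0321 percent of all probe sets called, 0.00583 percent higher in T and 0.0262 percent lower. An unadjusted p under 0.05 was found in 3 of the 21 and in 3303 of all 34316 tested probe sets. The 3 were EXPB6 (0.48 ± 0.14, adjusted p = 0.414), EXPB7 (0.37 ± 0.13, adjusted p = 0.477) and XTH8 (-0.24 ± 0.10, adjusted p = 0.509).

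Whether the genotype difference itself depended on the soil was tested as an interaction. In limma 0 of the 21 passed, as did 0 percent of all probe sets. An unadjusted p under 0.05 was found in 2 of the 21 and in 2032 of all 34316 tested probe sets. EXPB6 had an interaction of 0.95 ± 0.28 and EXPA1 of 0.67 ± 0.25 (limma adjusted p = 0.829 for both).

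**Figure D5:**
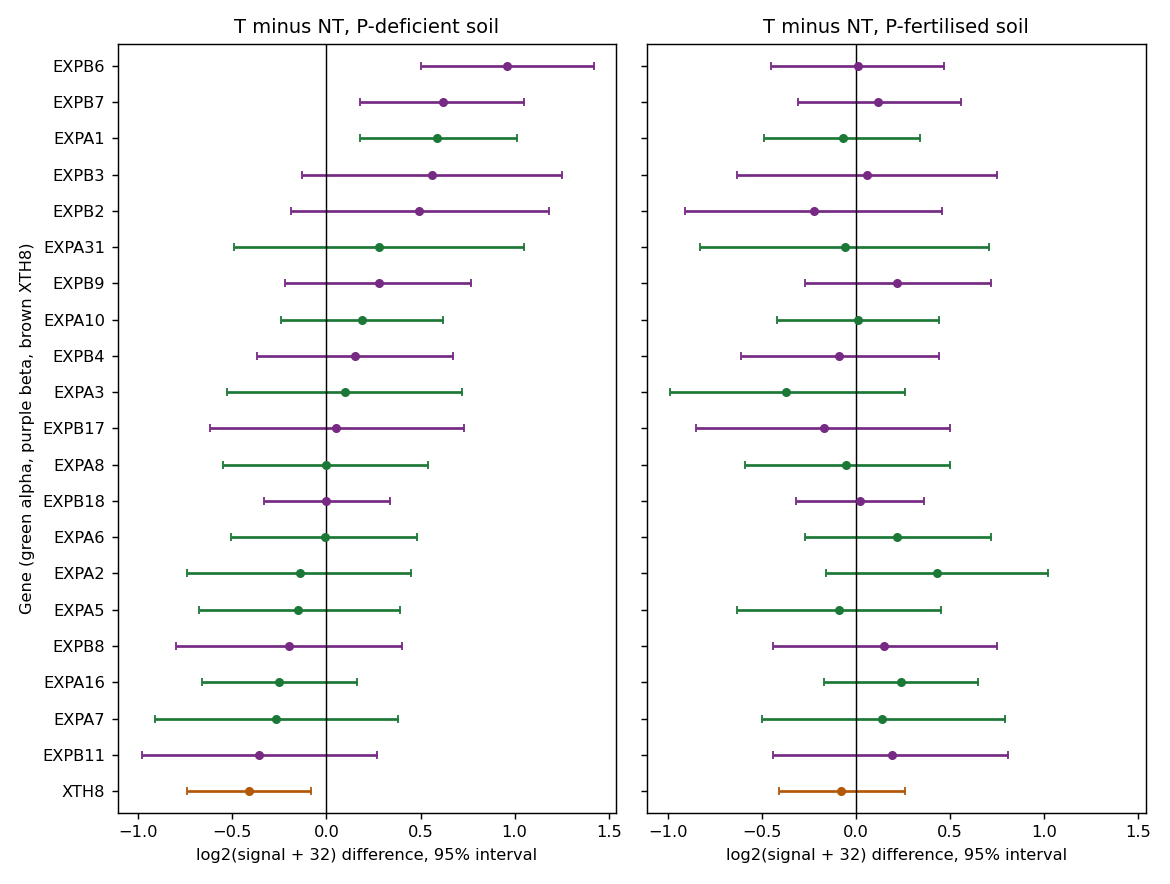
T minus NT difference of the 21 tested genes with its 95% interval, in log2(signal + 32), in P-deficient soil (left) and P-fertilised soil (right). EXPB6, EXPB7 and EXPA1 lie above 0 and XTH8 below 0 in P-deficient soil with intervals that leave out 0, none passed after adjustment over all probe sets, and in P-fertilised soil every interval holds 0.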

How the data were processed

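Each array came as 1 column of intensity values for 57381 probe sets, deposited after GCOS, the tool named by the submitters' processing notes, whose release and options no source at hand states. Leaving aside the top and bottom 2 percent, the deposited intensity averaged 100.01 to 100.02 on every array, so the authors had scaled it. Summed intensities ran from 8060018 to 8802152 per array. The number of arrays limits the precision.

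After removal of 187 control probe sets, the dimmest 40 percent by mean log2(value + 32) were left out, which set the limit at 5.39. The 4 group means were estimated in R 4.3.3 by limma 3.58.1 (lmFit, eBayes with a trend, 4 residual degrees of freedom), with Benjamini-Hochberg adjustment over all 34316 probe sets at 0.05. The spread is pooled over groups. The script was tested on simulated data. Each gene is read by its probe set with the highest mean signal.

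Genes were named through the platform annotation (22436 probe sets with 1 gene, 95 with several, 34663 not listed) and the RefSeq table of assembly ASM3414082v1, where all 17905 genes matched, and that table served for names and gene order only. Every gene of the rule is named. Values on every array are given for up to 6 falling genes a class with the largest difference, for those with the smallest p between genotypes, for genes known from roots, and for genes whose probe sets disagree. Genes of other lists are up to 3 with the smallest p, and further ones were chosen after their values were seen. The genes and lists were chosen with earlier results of these data known. Alternatives were pseudocounts of 1 and 100, quantile normalization, other filters, a replicate block, the mean over a gene's probe sets, the GAPDH ratio as a covariate, no trend, only the arrays compared, and leaving out each array.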

Additional observations from a re-analysis of the deposited data

How the results depend on the processing

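Over both genotypes the count of lower genes was 14 to 19 under 17 alternatives, with 0 higher. It was 14 of 14 tested with the mean over a gene's probe sets, 17 of 18 with the lowest 60 percent left out and 19 under each of the others, leaving out any array included. The fit on means over probe sets did not include EXPA7 and EXPB17, the only tested members with several probe sets. EXPA6 and EXPB9, which had not passed, were also missing from it. Each of the 14 had 1 probe set, so this setting cannot show whether probe sets of a gene disagree. Log2 sizes moved with the pseudocount. For EXPA8 and EXPB18 the soil difference was -4.91 and -4.07 with 1, and -1.41 and -0.47 with 100, against -2.50 and -1.12 with 32, and EXPB6 differed between genotypes in P-deficient soil by 1.84 with 1 and 0.48 with 100, passing with neither. Leaving out 1 array in turn gave 0 to 1 genes between T and NT in P-deficient soil, the 1 being EXPB6 without T replicate 2 of that soil, and 0 for P-fertilised soil, over both soils and for the interaction. For the other cell wall genes the mean over probe sets gave 19 calls against 30, with 26 in place of 40 genes tested. The replicate numbers were not shown to pair the samples, as replicate deviations correlated at -0.261 between T and NT of P-deficient soil and 0.21 between those of P-fertilised soil. With the replicate block 19 genes were lower over both genotypes, and 0 passed between T and NT in P-deficient soil, with the numbers as labelled or crossed, a pairing chosen after seeing the data. The replicate block changed no other count of called expansin and XTH genes by over 1.5 times.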

Other observations

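Some genes taken in by the cell wall name lists ran against the expansins, not all of them wall genes. ELA3, an early nodulin-like gene also named ENODL18 that the pattern for arabinogalactan proteins took in, averaged 3293 in T roots and 2965 in NT roots of P-deficient soil, against 42.55 in T roots and 33 in NT roots of P-fertilised soil, a rise of 5.52 ± 0.14 on the log2 scale (SE, limma adjusted p = 8.62e-08). AGP1 rose by 0.89 ± 0.15. Of the 2 pectin methylesterase inhibitor genes with a probe set, PMEI8 rose by 1.03 ± 0.20 and PMEI28 did not pass (0.44 ± 0.18, limma adjusted p = 0.0805).

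EXLA2, an expansin-like gene, had the widest spread of the expansin-like genes between genotypes in P-deficient soil. It read 59.6 and 323.8 in T roots and 496.1 and 692.7 in NT roots there, a difference of -1.78 ± 0.53 that did not pass (limma adjusted p = 0.253), and its second probe set differed by -1.80 ± 0.48. The lower T value was on replicate 1, the array with the GAPDH ratio of 198.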
